A study of Danio rerio with 3 samples.

Results

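The transcripts of 9 zebrafish genes that write or read N6-methyladenosine (m6A) on RNA were followed through 3 libraries of whole embryos. The genes were taken by name from the deposited table: the methyltransferase genes mettl3, mettl14 and wtap, the YTH reader genes ythdf1, ythdf2, ythdf3 and ythdc1, and the Igf2bp reader genes igf2bp1 and igf2bp3. Each of the 9 names matched 1 of the 26437 rows, and all 9 belong to the 14306 genes whose mean reached 1 FPKM (fragments per kilobase, a level scaled to transcript length and to the size of the library), called measured genes here.

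All embryos were of the AB strain, with 1 library per group. The wild-type library was taken at dome, a late blastula stage, 4.3 hours post fertilization (hpf). The other 2 libraries came from maternal-zygotic (MZ) nup85-/-;nup133-/- embryos, which are mutant for both nuclear pore genes in the mother's supply and in their own genome. The mutant 1k library was taken at 4.3 hpf and carries that stage tag, and the mutant dome library was taken at 7 hpf with dome morphology. At 4.3 hpf genotype and stage tag differ together, and at dome genotype and age differ together, so neither pair can be told apart. The labels do not describe the alleles or the number of embryos in a library.

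The modification m6A is placed on nascent messenger RNA in the nucleus by a complex in which Mettl3 is the catalytic subunit, Mettl14 is its RNA-binding partner and Wtap holds the pair at nuclear speckles. Readers then act on the marked RNA: Ythdc1 in the nucleus, in splicing and export, and the Ythdf proteins in the cytoplasm, mostly in decay. Igf2bp proteins bind and stabilize marked messages. The early zebrafish embryo lives on RNA deposited by the mother, which is cleared as its own genome is switched on. In that setting Ythdf2 is known for a part in maternal RNA clearance and Igf2bp3 for keeping maternal RNA stable.

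Single libraries allow no replicate check, so no difference was tested and no value has an error. The table holds no counts, so depth is unknown. FPKM values summed to between 397357 and 431333 per library. They are relative to the library, and less RNA per cell cannot be told apart from fewer cells that hold it. Log2 ratios are of FPKM + 1. As references for stage, all 4 zygotic marker genes were lowest in the mutant 1k library and highest in the mutant dome library. Of 5 maternal and genome activation markers, 3 (buc, btg4 and sox19b) had the opposite order, while nanog was highest in wild type and pou5f3 in the mutant dome library. The maternal gene buc stood at 124, 274 and 20.4 FPKM in the wild-type, mutant 1k and mutant dome libraries, and the zygotic gene tbx16 at 60.9, 0.11 and 297 FPKM. The mutated gene nup133 stood at 11.7, 0.31 and 1.91 FPKM, and nup85 at 13.2, 10.35 and 9.55. Of 7 marker genes of differentiated tissues 6 had values, which summed to 0.21 to 1.97 FPKM per library.

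Most of the writers and readers were abundant in every library, and 2 stood apart across libraries. Levels ran from 5.30 to 123 FPKM in wild type, from 20.6 to 128 in the mutant 1k library and from 10.85 to 112 in the mutant dome library. Their medians of 52.2, 50.8 and 62.5 FPKM compare with 9.58, 12.4 and 9.44 for all measured genes. The ratio of a gene's highest to its lowest library was 8.07 for igf2bp1 and 4.68 for ythdf3, and 1.14 to 1.94 for the other 7.

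**Figure D1:**
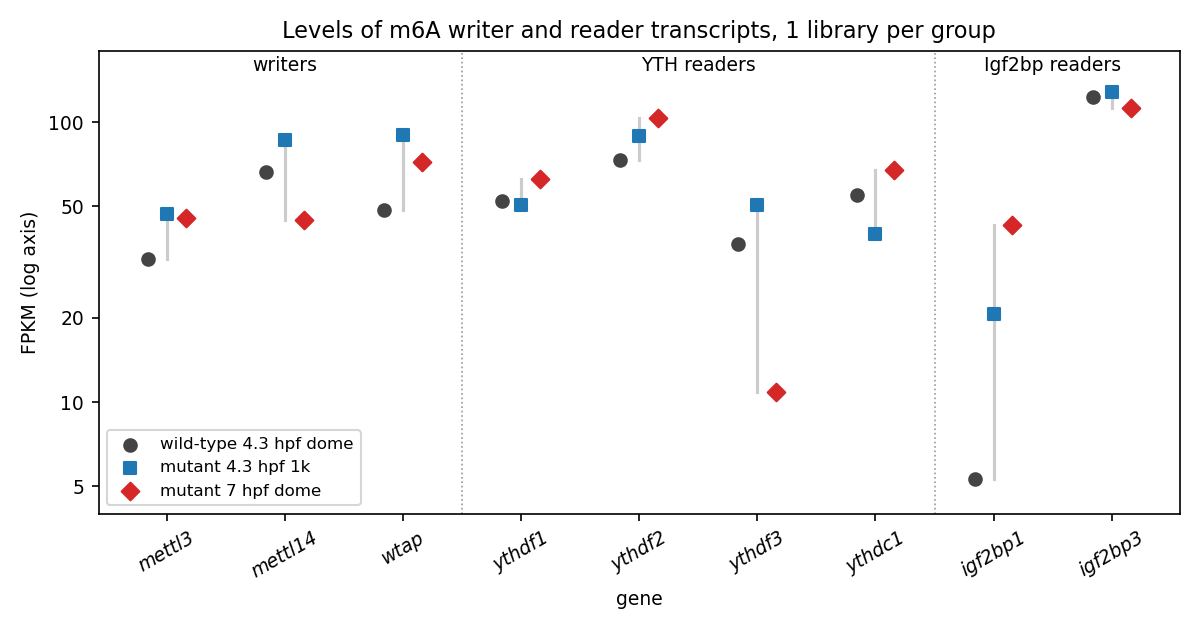
FPKM on a log axis for each of the 9 genes, with 1 point per library (circle, wild-type 4.3 hpf dome; square, mutant 1k; diamond, mutant dome); grey lines join the lowest and highest library. The points of igf2bp1 spread from 5.30 to 42.8 FPKM and those of ythdf3 from 10.85 to 50.8, while those of igf2bp3 lie between 112 and 128.

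Among the writers, the catalytic subunit gene mettl3 (gene 100004398) had 32.6 FPKM in wild type, 47.1 in the mutant 1k library and 45.5 in the mutant dome library. Both mutant libraries were above wild type, by 1.45 and 1.40 times in FPKM, with log2 ratios of 0.52 and 0.47, the latter -0.03 when libraries were scaled on proteasome genes. The partner gene mettl14 (gene 404603) stood at 66.4, 86.4 and 44.6 FPKM. It was highest in the mutant 1k library and lowest in the mutant dome library, which differed by a log2 ratio of -0.94, just inside 2-fold. With the libraries scaled to equal sums or on proteasome genes this ratio passed 2-fold, at -1.06 and -1.30.

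The adaptor gene wtap (gene 334058) stood at 48.5, 89.8 and 72.1 FPKM, lowest in wild type. Its log2 ratio of 0.88 at 4.3 hpf was the largest of the writers there, and 20.3% of measured genes had a ratio at least as high. No writer differed by 2-fold between any pair of libraries on values as deposited.

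The balance of the writer pair differed between the libraries, and a ratio within a library does not depend on scaling between libraries. The FPKM of mettl3 was 0.49 times that of mettl14 in wild type, 0.54 times in the mutant 1k library and 1.02 times in the mutant dome library. In this ratio the 4.3 hpf libraries of both genotypes were close to each other, and the 7 hpf library held nearly equal levels of the pair. The FPKM of wtap was 0.73, 1.04 and 1.62 times that of mettl14 in the same order. It was 1.49, 1.91 and 1.58 times that of mettl3, so in that ratio the wild-type and mutant dome libraries were the closest.

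The Ythdf reader genes were headed by ythdf2 in every library. The gene ythdf2 (gene 393220), whose product recruits deadenylases to marked RNA, had 73.2 FPKM in wild type, 89.6 in the mutant 1k library and 104 in the mutant dome library. Against wild type its log2 ratios were 0.29 and 0.50, within the middle 50% of all measured genes in each comparison (-0.36 to 0.73 and -0.61 to 0.55). The second ratio was -0.01 under scaling on proteasome genes. Its paralog ythdf1 (gene 327606) had 52.2, 50.5 and 62.5 FPKM, and log2 ratios to wild type of -0.05 and 0.26, whose signs turned under scaling to equal sums (0.05) and on proteasome genes (-0.25).

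The third paralog, ythdf3 (gene 334191), had 36.8 FPKM in wild type, 50.8 in the mutant 1k library and 10.85 in the mutant dome library. The 7 hpf library was low, 3.39 times below wild type and 4.68 times below the younger mutant library in FPKM. The log2 ratios were -1.67 and -2.13, and 2.89% and 3.52% of measured genes had a ratio at least as low. At 4.3 hpf the mutant was above wild type, at a log2 ratio of 0.45.

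The Ythdf proteins bind the same mark and were reported to act redundantly in zebrafish, so their shares were set side by side. Their summed level was 162 FPKM in wild type, 191 in the mutant 1k library and 177 in the mutant dome library. The share of ythdf3 in that sum was 22.7%, 26.6% and 6.12%. The share of ythdf2 was 45.1%, 46.9% and 58.6%, and that of ythdf1 was 32.2%, 26.5% and 35.3%. The level of ythdf2 was 1.99, 1.76 and 9.57 times that of ythdf3.

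The nuclear reader gene ythdc1 (gene 492769) had 55.1 FPKM in wild type, 39.8 in the mutant 1k library and 67.4 in the mutant dome library. It was the writer or reader with the lowest log2 ratio at 4.3 hpf, -0.46, and had the second highest between the mutant libraries, 0.75. Its order across libraries, lowest in the mutant 1k library and highest in the mutant dome library, was also that of tbx16, over a far smaller range. That order of ythdc1 changed under scaling on proteasome genes, where its log2 ratio at 7 hpf to wild type turned from 0.28 to -0.22.

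The Igf2bp reader genes stood at opposite ends of the level scale in wild type. The gene igf2bp3 (gene 30967) had 123 FPKM in wild type, 128 in the mutant 1k library and 112 in the mutant dome library. It was the most abundant of the 9 genes in each library, above 95.7%, 97.1% and 94.9% of measured genes. Against wild type its log2 ratios were 0.06 and -0.13, and the first turned to -0.10 under scaling by the median of ratios.

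The gene igf2bp1 (gene 558182), whose product is known as an oncofetal RNA-stabilizing protein in mammals, had 5.30 FPKM in wild type, 20.6 in the mutant 1k library and 42.8 in the mutant dome library. Both mutant libraries were above wild type, 3.89 and 8.07 times in FPKM, and the 7 hpf library was 2.07 times above the younger one. The log2 ratios were 1.78, 2.80 and 1.02, and the last was 0.90 with the libraries scaled to equal sums and 0.66 on proteasome genes. Of measured genes, 4.01%, 1.54% and 13.7% had a ratio at least as high in these comparisons. The level of igf2bp1 was above 36.9% of measured genes in wild type, 62.3% in the mutant 1k library and 83.3% in the mutant dome library.

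The sum of both Igf2bp genes was 128 FPKM in wild type, 149 in the mutant 1k library and 155 in the mutant dome library. The share of igf2bp1 in it was 4.13%, 13.9% and 27.6%. The level of igf2bp3 was 23.2, 6.22 and 2.62 times that of igf2bp1. Neither buc nor tbx16 had the library order of igf2bp1, since in both of these the mutant 1k library held an extreme value. The marker pou5f3 did have that order, at 520, 533 and 1096 FPKM.

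**Figure D2:**
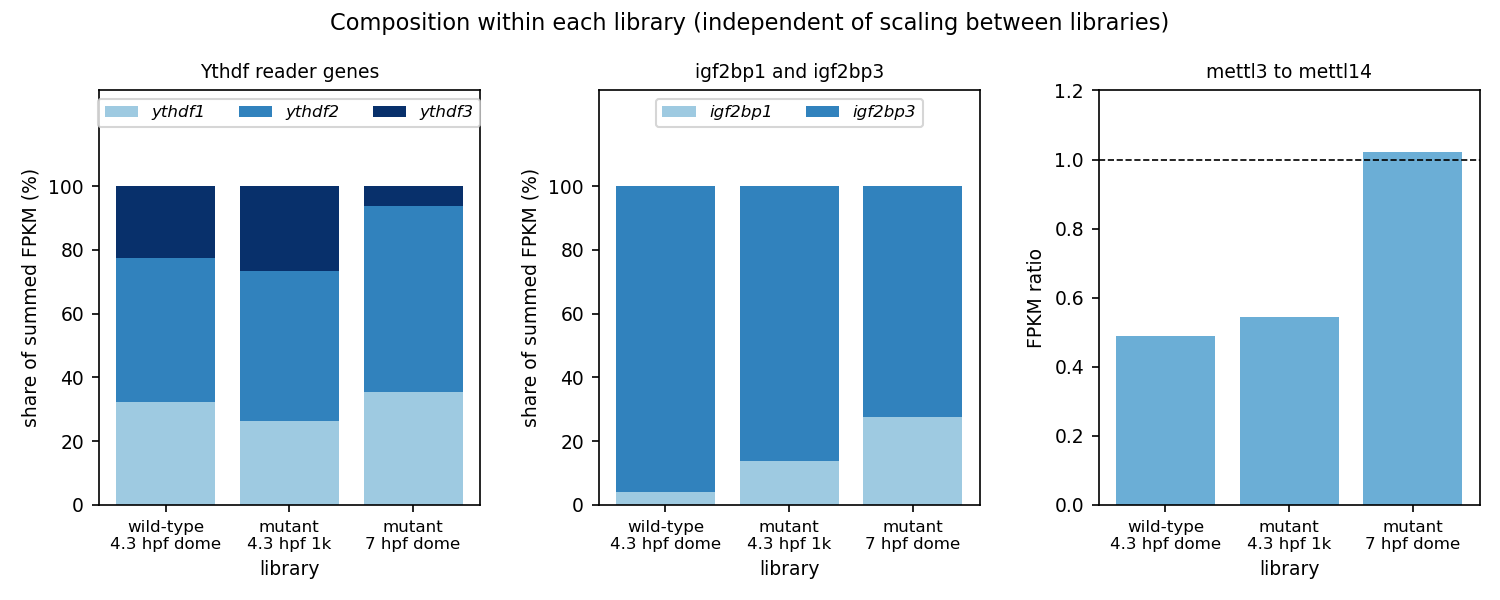
Shares of summed FPKM (%) of the Ythdf genes and of igf2bp1 with igf2bp3, and the FPKM ratio of mettl3 to mettl14 (dashed line at 1), in each of the 3 libraries, with no replicates. The share of ythdf3 is 6.12% in the mutant dome library against 22.7% and 26.6% in the others, the share of igf2bp1 goes from 4.13% to 27.6%, and the mettl3 to mettl14 ratio goes from 0.49 to 1.02.

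Counted as a group, the 9 genes passed 2-fold in numbers near those of measured genes at large. In the mutant 1k library against wild type, 1 of 9 was at least 2-fold higher (igf2bp1) beside 16.6% of measured genes, and 0 were at least 2-fold lower beside 9.6%. Their median log2 ratio was 0.38, where that of all measured genes was 0.16. Of the 9 ratios 7 were above 0, the lowest of these being igf2bp3 at 0.06, and 54.5% of measured genes had a ratio at least as high. The ratio of igf2bp3 fell below 0 by the median of ratios (-0.10) and on proteasome genes (-0.08). That of ythdf1 rose above 0 with equal sums (0.05). In the mutant dome library against wild type, 1 was higher (igf2bp1) beside 13.9% of genes and 1 was lower (ythdf3) beside 12.5%, with a median of 0.28 against -0.05. Between the mutant libraries, 1 was higher at 7 hpf (igf2bp1) beside 13.8% and 1 was lower (ythdf3) beside 22.2%, with a median of -0.05 against -0.21. The first 2 comparisons share the wild-type library, and each mutant library serves in 2 comparisons.

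The shares past 2-fold were also taken over abundant genes. The limit was a mean of 20 FPKM, chosen after the values were seen because the mean of every one of the 9 genes exceeds it. The gene igf2bp1, at 5.30 FPKM in wild type and a mean of 22.9, met it only through the mutant libraries where it was high. The gene ythdf3, at 10.85 FPKM in the mutant dome library and a mean of 32.8, met it through the other libraries, where it was high. The shares below thus do not serve to rank the ratios of igf2bp1 or ythdf3. Of the 5086 genes that met the limit, 7.85% were higher and 7.29% lower in the mutant 1k library against wild type. The shares were 7.26% and 12.7% in the mutant dome library against wild type, and 9.01% and 18.5% between the mutant libraries. Scaling on proteasome genes turned the shares of all measured genes to 8.63% higher and 26.7% lower in the mutant dome library against wild type, and to 11.5% and 30.9% between the mutant libraries.

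**Figure D3:**
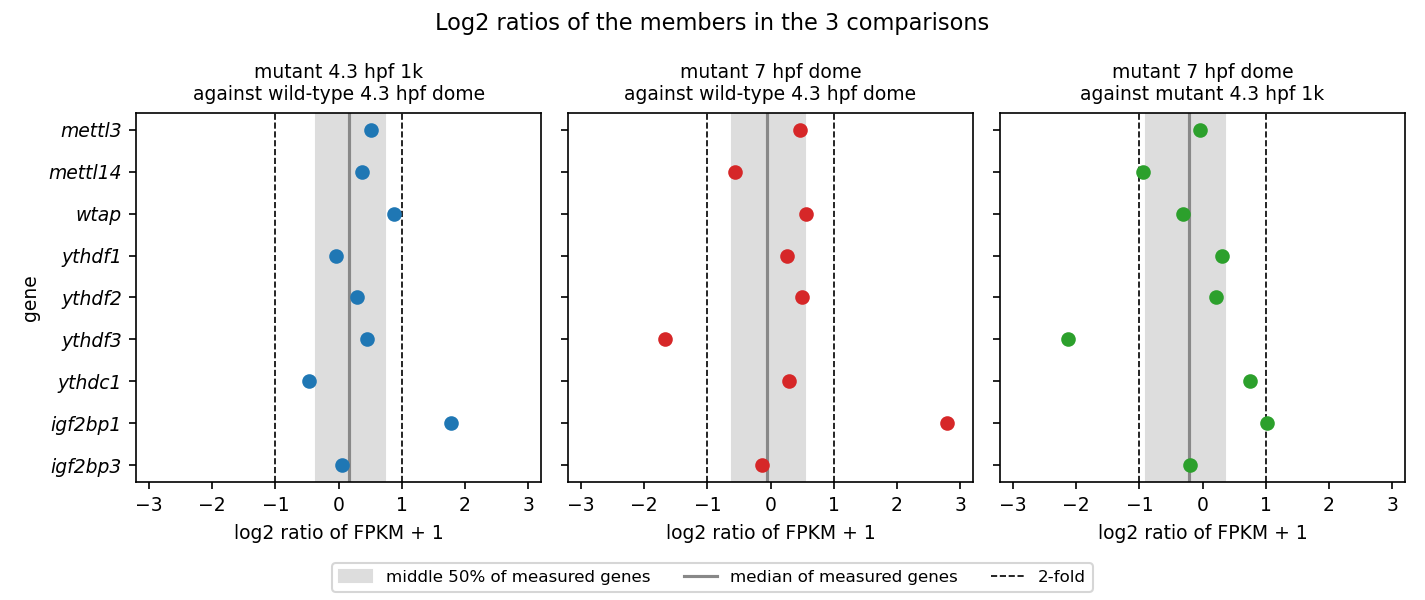
Log2 ratios of FPKM + 1 of the 9 genes (points) in the 3 comparisons, with the middle 50% of all measured genes (grey band), their median (grey line) and the 2-fold limits (dashed). As deposited, only igf2bp1 and ythdf3 pass 2-fold, igf2bp1 at 1.78, 2.80 and 1.02 and ythdf3 at -1.67 and -2.13.

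By the order of the 3 libraries the genes fell into 4 classes. The genes mettl14, ythdf3 and igf2bp3 were highest in the mutant 1k library and lowest in the mutant dome library, as were 27.2% of measured genes without ties and 3 of the 5 maternal markers. The genes mettl3 and wtap were highest in the mutant 1k library and lowest in wild type (18.4% of genes). The genes ythdf2 and igf2bp1 were lowest in wild type and highest in the mutant dome library (12.1%), as was the marker pou5f3. The genes ythdf1 and ythdc1 were lowest in the mutant 1k library and highest in the mutant dome library (16.9%), as were all 4 zygotic markers. None of the 9 was highest in wild type. Of measured genes without ties, 14.4% were highest in wild type and lowest in the mutant dome library. Another 10.9% were highest in wild type and lowest in the mutant 1k library. These orders are of values as deposited: 7 to 8 of the 9 genes kept theirs under the scalings to sums and by the median of ratios, and 4 did under scaling on proteasome genes. Wild type was highest in 1 of the 9 by the median of ratios and in 3 on proteasome genes. The shares of measured genes were not taken for these 2 scalings. Neighbouring libraries differed little in several of these orders, as for ythdf1 at 52.2 and 50.5 FPKM, and no replicate spread exists to rank them.

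Within a library, igf2bp3 was followed in wild type by ythdf2, mettl14 and ythdc1. In the mutant 1k library wtap at 89.8 FPKM and ythdf2 at 89.6 came next, at nearly the same level, then mettl14. In the mutant dome library ythdf2, wtap and ythdc1 came next. The lowest place was held by igf2bp1 in wild type and in the mutant 1k library and by ythdf3 in the mutant dome library.

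The likeness of other genes was measured as the Euclidean distance of log2(FPKM + 1) over the 3 libraries, which counts level as well as pattern, among 11125 other named genes. The gene nearest to ythdf2 was dcps, which encodes a scavenger decapping enzyme, at a distance of 0.04 and with 73.8, 87.9 and 102 FPKM. The gene nearest to ythdf3 was fam114a2, at 0.13, with 34.6, 54.2 and 11.05 FPKM, and 8 genes lay within 0.25. The gene nearest to mettl3 was nol6 (0.06), to mettl14 orc1 (0.12), to wtap vezf1b (0.22), to ythdf1 stk40 (0.07), to ythdc1 efhd2 (0.06) and to igf2bp3 rhogc (0.09). No gene lay within 0.25 of igf2bp1, whose nearest was ywhae2 at 0.50, with 7.76, 22.7 and 40.9 FPKM. Only 3 libraries enter these distances, so a near neighbour was common for most of the genes. The number of genes within 0.25 ran from 0 for igf2bp1 and 2 for wtap to 51 for ythdf1.

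The remaining m6A machinery was read from 7 lists of 47 names, of which 46 matched a row and 42 reached a mean of 1 FPKM. In the mutant 1k library against wild type 3 of the 42 were at least 2-fold higher and 1 was at least 2-fold lower, with a median log2 ratio of -0.11, beside 16.6% and 9.6% of measured genes and a median of 0.16. In the mutant dome library against wild type 6 were higher and 4 lower (median -0.04), beside 13.9% and 12.5% and a median of -0.05. Between the mutant libraries 5 were higher and 5 lower (median 0.09), beside 13.8% and 22.2% and a median of -0.21. Among the genes counted as higher in these comparisons, igf2bp2b, mat2al and mat2ab met the filter on low values only through mutant libraries in which they were high. Among those counted as lower, fto met it through its higher level in wild type. Scaling on proteasome genes gave 3 higher and 3 lower, 4 and 12, and 4 and 8 in the same order of comparisons. The shares of measured genes were then 14.1% and 11.5%, 8.63% and 26.7%, and 11.5% and 30.9%. These shares also apply to the counts by list under that scaling.

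Of the 5 further subunits of the writer complex, 0 passed 2-fold in any comparison as deposited. By the median of ratios 1 was higher between the mutant libraries, beside 15.2% of measured genes. Under scaling on proteasome genes 2 were lower in the mutant dome library than in wild type, beside 26.7%. The scaffold gene virma, listed under a clone symbol and named through its gene ID, stood at 15.1, 12.7 and 24.1 FPKM in the wild-type, mutant 1k and mutant dome libraries. The subunit gene with the highest mean, zc3h13, which anchors the complex in the nucleus in mammals, stood at 76.2, 56.6 and 50.1 FPKM. Of these subunit genes it was the highest in wild type only. The RNA-binding adaptor gene rbm15 stood at 44.8, 42.4 and 54.3 FPKM. All 5 had log2 ratios below 0 at 4.3 hpf, from -0.42 to -0.02, where mettl3, mettl14 and wtap had 0.38 to 0.88. Under scaling to equal sums 3 of the 5 were above 0.

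Of 6 other methyltransferase and cofactor genes, 1 was at least 2-fold lower and 0 were higher in each comparison with the mutant dome library, and 0 passed at 4.3 hpf. Under scaling on proteasome genes 3 were lower against wild type and 2 between the mutant libraries. Equal sums also gave 2 lower between the mutant libraries, beside 24.98% of measured genes. The gene mettl16, which methylates U6 RNA and the S-adenosylmethionine synthetase message in mammals, stood at 48.3, 72.7 and 25.8 FPKM, a log2 ratio of -1.46 between the mutant libraries. The gene mettl4 stood at 36.6, 26.3 and 12.8 FPKM, a log2 ratio of -1.45 to wild type at 7 hpf.

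Both demethylase genes, the erasers of m6A, were lowest in the mutant dome library. The gene alkbh5 had 49.1, 66.3 and 29.0 FPKM, and its log2 ratios at 7 hpf were -0.74 to wild type and -1.17 to the younger mutant library. The gene fto was low throughout, at 3.34, 1.55 and 0.67 FPKM, with a log2 ratio of -1.38 at 7 hpf to wild type. It met the filter on low values through its higher level in wild type, so this ratio is not free of that filter. On proteasome genes both were at least 2-fold lower in the mutant dome library than in wild type, as were 26.7% of measured genes. The library order of alkbh5 was that of mettl14 and ythdf3.

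Of 9 further reader genes with a mean of 1 FPKM, 2 were at least 2-fold higher and 0 lower in both comparisons with the mutant dome library, and 0 passed at 4.3 hpf. Equal sums gave 1 higher at 4.3 hpf, beside 19.01% of measured genes. Scaling on proteasome genes gave 1 higher in the mutant dome library against wild type, and 2 higher and 2 lower between the mutant libraries. As deposited, one was igf2bp2b, a paralog of igf2bp1, at 0.28, 0.07 and 6.73 FPKM, which met the filter on low values through the 7 hpf library alone. Another was elavl1b, listed as hug, a paralog of the Hu protein gene elavl1a, at 8.88, 6.86 and 23.1 FPKM. The paralog igf2bp2a stood at 3.03, 6.91 and 3.30 FPKM, so neither igf2bp2 gene reached the level of igf2bp3. The highest mean was that of elavl1a, at 196, 144 and 239 FPKM, although hnrnpc at 182 FPKM was above it in the mutant 1k library. Of the Fragile X family genes, fxr1 and fxr2 lay between 74.9 and 82.6 FPKM in all libraries, and fmr1 had 31.0, 39.4 and 22.8 FPKM.

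In the methyl donor cycle, which makes and recycles S-adenosylmethionine, the counts of higher and lower genes among 6 were 1 and 0 at 4.3 hpf, 2 and 0 in the mutant dome library against wild type, and 1 and 2 between the mutant libraries. Scaling on proteasome genes gave 2 higher and 3 lower in the mutant dome library against wild type, beside 8.63% and 26.7% of measured genes. It and the median of ratios gave 1 lower at 4.3 hpf, each beside 11.5% of measured genes. Between the mutant libraries 1 rather than 2 was lower by the median of ratios, beside 18.7%. The same count came when the top 1% of genes was left out of the sums, beside 21.01%. The main synthetase gene mat2aa stood at 241, 348 and 148 FPKM and the regulatory subunit gene mat2b at 33.6, 48.0 and 23.4 FPKM, the 2 lower genes between the mutant libraries. Both had the library order of mettl14 and ythdf3. The paralogs mat2ab and mat2al, at 0.30, 3.27 and 2.94 FPKM and at 0.53, 0.43 and 5.20 FPKM, were the higher ones. Both were low throughout. The filter on low values was met by mat2al through the mutant dome library alone and by mat2ab only through the mutant libraries. The gene ahcy, whose product removes the by-product of methylation, was highest in wild type, at 140, 72.8 and 87.7 FPKM.

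Of 7 genes of splicing and export partners of Ythdc1, 1 was higher and 0 lower at 4.3 hpf, 1 and 1 in the mutant dome library against wild type, and 2 and 1 between the mutant libraries. Scaling on proteasome genes gave 1 and 1, 0 and 1, and 1 and 1. The median of ratios gave 1 lower at 4.3 hpf, beside 11.5% of measured genes. Equal sums gave 1 higher between the mutant libraries, beside 13.1%. The splicing factor genes srsf3a and srsf3b stood at 57.8, 39.4 and 122 FPKM and at 202, 117 and 254 FPKM, in the library order of ythdc1. The export receptor gene nxf1a, listed under a clone symbol, stood at 6.48, 18.4 and 2.52 FPKM, and its paralog nxf1b at 24.5, 32.0 and 43.0 FPKM. The export adaptor gene alyref was the most abundant in each library, at 739, 386 and 549 FPKM.

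Of 7 genes of partners of the Ythdf and Igf2bp proteins, 1 was higher and 1 lower in each comparison with wild type. Between the mutant libraries 0 passed. The higher gene was pabpc1b in both comparisons. The lower gene was pabpc1a at 4.3 hpf (log2 ratio -1.04) and pabpc1l in the mutant dome library (-1.19). With equal sums 0 were lower at 4.3 hpf, beside 8.77% of measured genes. The scaffold gene of the deadenylase complex that Ythdf2 recruits, cnot1, stood at 56.2, 55.9 and 48.8 FPKM, and the decay helicase gene upf1 at 49.2, 46.0 and 48.4. The poly(A)-binding protein gene pabpc1a stood at 556, 271 and 455 FPKM, its paralog pabpc1b at 3.28, 9.39 and 11.1, and the oocyte form gene pabpc1l at 57.5, 33.6 and 24.7.

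**Figure D4:**
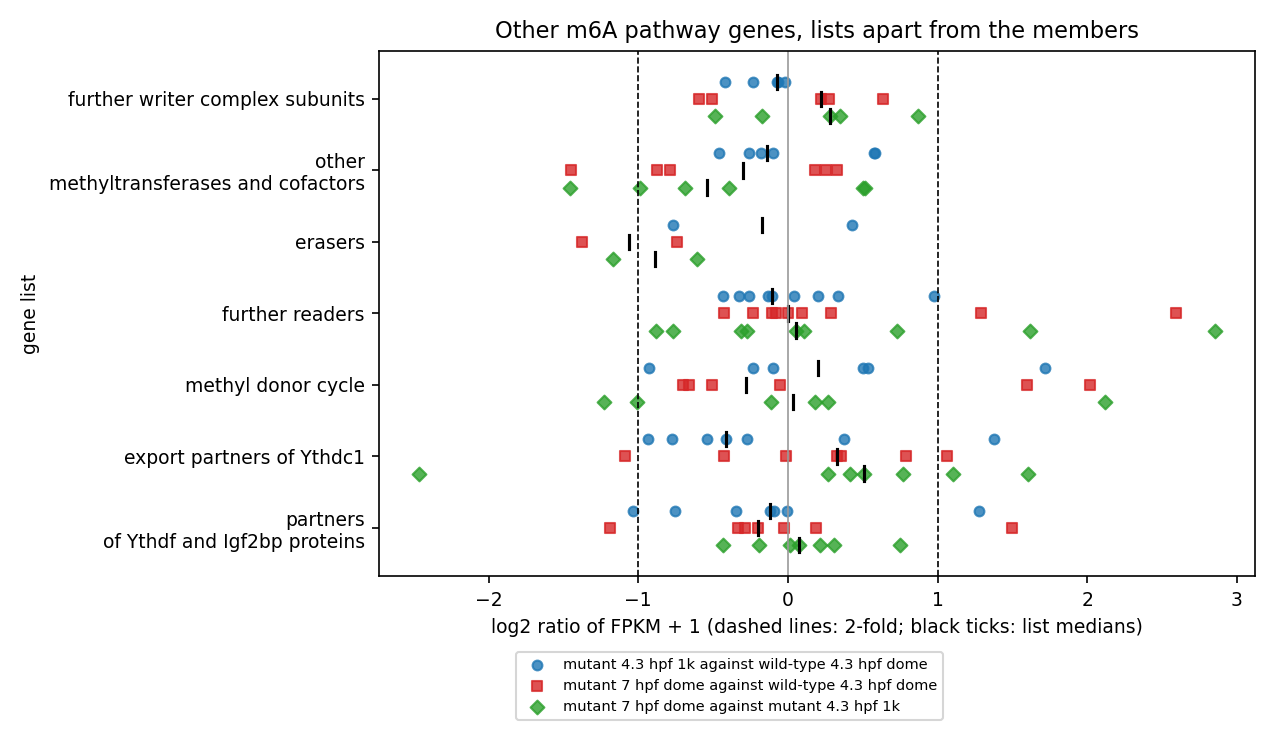
Log2 ratios of FPKM + 1 of the 42 other m6A pathway genes whose mean reached 1 FPKM, by list, in the 3 comparisons (circle, mutant 1k against wild type; square, mutant dome against wild type; diamond, mutant dome against mutant 1k), with list medians as black ticks and 2-fold limits dashed. As deposited, writer complex subunits stay inside 2-fold in each comparison, and the highest point is igf2bp2b at 2.85, a gene that reached the mean of 1 FPKM through the mutant dome library alone.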

How the data were processed

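Per the labels' protocols, total RNA of dechorionated embryos was purified on columns. Strandedness, poly(A) selection and the handling of reads shared by paralogs are not stated there. Named in the submitters' processing notes are Trimmomatic 0.36, Bowtie2 2.2.5, RSEM 1.2.8 and GRCz11, without roles. The deposited table holds the authors' FPKM, 1 column per library, per the file headers, rounded to 0.01. Of its rows, 1051 have no value and were left out. Libraries were grouped by title.

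The 3 pairs of libraries were compared by log2 ratios with a pseudocount of 1 FPKM over genes whose mean reached 1 FPKM, and genes were counted at 2-fold. With 1 library per group no test was possible. The members and lists were chosen with earlier results of these data known. Of 47 list names 8 were matched through the gene IDs of a RefSeq table of the assembly GRCz12tu, used for names only, and 1 was not matched. The rule for names took all 9 genes, the largest ratios and the most abundant gene of each list. It also took the nearest genes, buc, tbx16 and the mutated genes. Named beyond it, after their values were seen, were rbm15, fmr1, fxr1, fxr2, hnrnpc, mat2b, ahcy, nxf1b, cnot1 and upf1. The genes nanog, pou5f3, sox19b and btg4 came from a separate list of markers. The order of pou5f3 was set beside that of igf2bp1 after the values were seen. The calculation was tested on simulated data. Alternatives were pseudocounts, filters, thresholds and 4 scalings. Python 3.11.15, numpy 2.4.6, pandas 2.3.3 and matplotlib 3.10.9 were used.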

Additional observations from a re-analysis of the deposited data

How the results depend on the processing

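The 2-fold positions of igf2bp1 against wild type and of ythdf3 in both comparisons with the mutant dome library held under pseudocounts of 0.1 and 5 FPKM and the 4 scalings. Between the mutant libraries, igf2bp1 dropped inside 2-fold, so that 0 genes were higher, with a pseudocount of 5 FPKM (log2 ratio 0.90), with equal sums (0.90) and with proteasome scaling (0.66). Of measured genes, 8.34%, 13.1% and 11.5% were higher there under these settings. There mettl14 passed it, giving 2 lower genes, with equal sums (-1.06) and proteasome scaling (-1.30), and proteasome scaling also gave 2 lower genes at 7 hpf against wild type (mettl14, -1.07). At 1.5-fold, 2 genes were higher at 4.3 hpf (beside 30.7% of measured genes), and 2 higher (19.1%) and 2 lower (35.0%) between the mutant libraries. At 4-fold, 0 were higher at 4.3 hpf (2.48%), 0 lower at 7 hpf against wild type (1.35%) and 0 higher between the mutant libraries (7.52%). Of the single ratios under other pseudocounts and scalings 145 kept sign and side of 2-fold, 3 dropped inside it, 3 passed it, and 11, all inside it, changed sign. The median over the 9 genes turned from 0.28 to -0.22 at 7 hpf against wild type with proteasome scaling, and from -0.05 to 0.11 between the mutant libraries by the median of ratios and to 0.01 with equal sums without the 1% most abundant genes. Scaling moved the median of all measured genes from 0.16 to 0.02 at 4.3 hpf by the median of ratios, from -0.05 to -0.50 at 7 hpf against wild type with proteasome scaling, and from -0.21 to -0.53 between the mutant libraries with proteasome scaling and to -0.32 with equal sums. Each scaling divided a library by 1 factor, so these shifts follow from the factors. Scaling on proteasome genes takes the median level of 46 such genes as equal in all libraries. Its factors were 0.86, 0.95 and 1.23 in the wild-type, mutant 1k and mutant dome libraries. Why the factors differ was not tested. No paired analysis was possible because each group has 1 library. Shares and ratios within a library do not depend on these choices. Depth is unknown, so the error of low values, such as igf2bp1 in wild type, could not be given.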
